A study of Mus musculus with 6 samples.

Results

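The S100 proteins are small calcium-binding proteins of vertebrates, and the 8 genes described here, S100a1, S100a4, S100a6, S100a10, S100a11, S100a13, S100a16 and S100b, encode members of the family other than calprotectin, the S100a8 and S100a9 complex of neutrophils. They were chosen by symbol, with earlier results of the same comparison known and with no threshold on their values, and all 8 of the 23238 gene symbols were found in every table. Because S100a4 was already known to differ between the groups, the folds and p-values given below describe these libraries and are not an independent test of the choice. The tables held 17 S100 genes in all, 9 of them outside the list.

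RNA was sequenced from lung tissue of wild-type mice given PM, which the labels do not spell out, or phosphate-buffered saline (PBS) as its vehicle, through a route the labels shorten to i.t. The exposure is called chronic in the title, and neither the strain, age and sex of the animals, nor the dose or duration, is given in the sources used here. There were 3 samples in each group, but PBS replicate 2 repeated the table of PBS replicate 1 in each of its 23282 entries, so the pair was counted as 1 and the comparison was between 2 PBS and 3 PM libraries. Nothing in the labels ties each sample to an animal of its own, so the p-values speak for the spread among these samples, which may be technical.

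Total counts of the entries kept ran from 7407957 to 8825238 per library, at which 3 counts, the limit that a count of 0 allows, correspond to 0.340 to 0.405 CPM (reads brought to one library size) for counting error alone. Lung markers were abundant in every library: the surfactant gene Sftpc lay between 9220 and 12200 CPM and the club cell gene Scgb1a1 between 15480 and 30490 CPM. Over all 14057 genes tested, 20 rose and 12 fell in PM lung, and the median log2 fold was 0.01. In bulk tissue, fewer cells of a type and less RNA per cell cannot be told apart.

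S100 proteins work mostly as dimers. Calcium binding to their EF-hand loops opens a surface that grips a target protein, such as an annexin or a myosin heavy chain. S100a10 is the exception, since its loops have lost calcium binding and it holds annexin A2 in a constant complex. Some members are also released from cells and bind receptors such as RAGE, the product of Ager, which alveolar type 1 cells make in large amounts. In lung, S100a4 is known from macrophages, T cells and some fibroblasts, S100a6, S100a10 and S100a11 from epithelium and stroma, S100a1 from heart muscle, and S100b from Schwann cells, fat and cartilage.

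Of the 8 members, 7 lie on mouse chromosome 3 between 90511034 and 93564643 (GRCm38, the assembly of mm10), in 3 stretches. S100a1 (90511034 to 90514392, minus strand), S100a13 (90514435 to 90524581, plus strand) and S100a16 (90537254 to 90543151, plus strand) stand first. S100a4 (90603771 to 90606045) and S100a6 (90612882 to 90624181) follow on the plus strand with 6836 bases between them. S100a11 (93520488 to 93526287) and S100a10 (93555080 to 93564643), also on the plus strand, lie 2896306 bases farther on. S100b is apart from the others, on chromosome 10 at 76253853 to 76261159 (plus strand).

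Promoter sequences from RefSeq (GRCm38.p6) were found for 7 of the 8 members, S100a10 being the one with no entry. Those of S100a4, the member that rose, and of S100a11, the member ranked next by p, are shown for the 250 bases before the start site, 5′ to 3′ on the plus strand, with matches to the searched motifs in capitals. The stretch between the start sites of S100a1 and S100a13 is shown because these divergent neighbours, 104 bases apart in that table, had unlike fitted folds. Neither was called, and their difference was not tested. The S100a4 stretch is chr3:90603520-90603769, the S100a11 stretch chr3:93520246-93520495 and the stretch between S100a1 and S100a13 chr3:90514331-90514434.
S100a4: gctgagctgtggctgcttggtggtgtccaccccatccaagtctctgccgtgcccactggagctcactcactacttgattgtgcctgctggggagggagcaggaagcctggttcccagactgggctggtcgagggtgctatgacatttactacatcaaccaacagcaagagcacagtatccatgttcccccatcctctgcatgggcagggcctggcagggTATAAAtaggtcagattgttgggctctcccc
S100a11: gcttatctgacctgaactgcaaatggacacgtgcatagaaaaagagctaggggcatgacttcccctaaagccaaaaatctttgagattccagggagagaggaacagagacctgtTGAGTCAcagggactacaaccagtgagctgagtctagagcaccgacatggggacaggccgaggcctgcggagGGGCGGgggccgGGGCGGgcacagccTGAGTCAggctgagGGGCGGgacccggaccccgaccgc
Between S100a1 and S100a13: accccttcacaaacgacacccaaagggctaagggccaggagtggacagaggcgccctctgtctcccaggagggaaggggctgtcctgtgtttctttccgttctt

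The motifs searched, on both strands, were AP-1 (TGANTCA), the core of the antioxidant response element (TGACNNNGC), the TATA box (TATAAA) and the GC box (GGGCGG). In the S100a4 window the capitals mark a TATA box starting 31 bases before the start site, a match held by 13.6% of 32851 promoters of the same length. In the S100a11 window they mark 2 AP-1 matches, 136 and 38 bases before the start site, and 3 GC boxes, 64, 52 and 24 bases before it. AP-1 matches were held by 7.81% and GC boxes by 35.7% of promoters. The windows of S100a1, S100a6, S100a13 and S100b held none of the 4 motifs, and those of S100a16 held single matches to AP-1, the antioxidant response element and the GC box. A match is a string of letters, not a site shown to be bound.

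S100a4 rose in PM lung to 1.83 times its PBS level, and it was the 1 member of 8 that passed the test over all genes, where 0.142% of genes rose. At an unadjusted p below 0.05, S100a1, S100a4, S100a10 and S100a11 were higher, 4 of 8 against 7.26% of all genes, and none was lower, against 6.05%. No member fell by edgeR's quasi-likelihood test, DESeq2 or limma-voom, where 0.0854% of all genes fell by edgeR. For 5 of the 8 members, S100a1, S100a4, S100a10, S100a11 and S100b, every PM library lay above every PBS library, which was so for 15.4% of all genes tested. For the other 3, S100a6, S100a13 and S100a16, the groups overlapped, and no member lay wholly below, against 16.1% of all genes. The median log2 fold of the 8 members was 0.32.

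**Figure D1:**
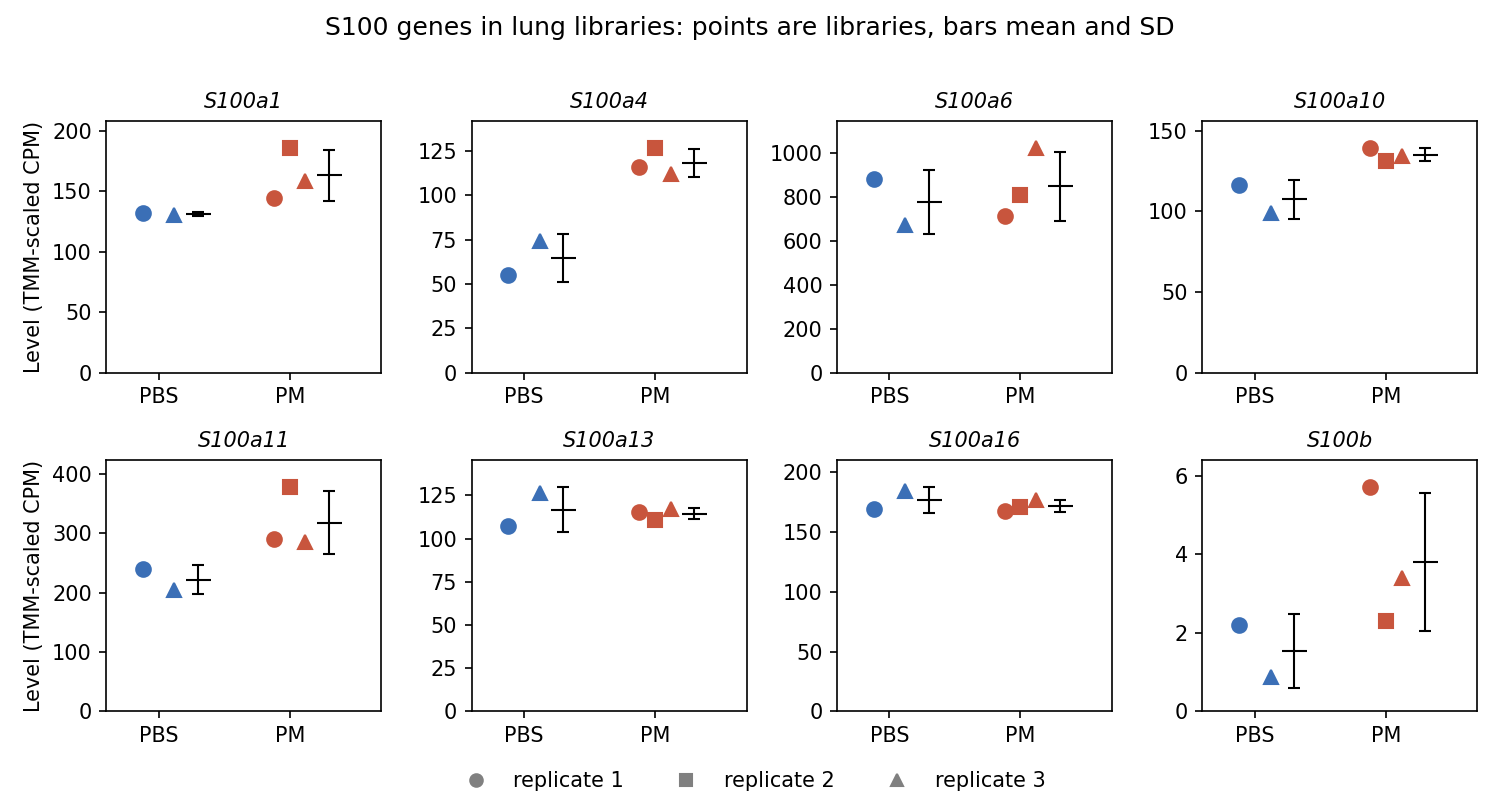
Level of each S100 gene in TMM-scaled CPM (y axis, from 0, a separate scale in each panel) in 2 PBS and 3 PM libraries, with points for libraries and black bars for mean and SD. S100a4 lies at 112 to 127 CPM in PM, above 55.2 and 74.1 CPM in PBS, and S100a6, S100a13 and S100a16 overlap between the groups.

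S100a4, called metastasin or fibroblast-specific protein, binds non-muscle myosin and is abundant in motile cells. In PBS replicates 1 and 3 it stood at 55.2 and 74.1 CPM, against 116, 127 and 112 CPM in PM replicates 1, 2 and 3, the order kept in what follows. The PM libraries lay close together, all above both PBS libraries. The means were 64.7 ± 13.4 CPM (SD, n = 2) and 118 ± 7.63 CPM (SD, n = 3), and the log2 fold was 0.87 ± 0.14 SE (adjusted p = 0.0385 by edgeR's quasi-likelihood test, two-sided, with Benjamini-Hochberg adjustment over all genes tested). S100a4 ranked 30 by p among the 14057 genes and 18 by size among the 20 that rose. The log2 fold stayed between 0.67 and 1.10 when each library was left out in turn. The call was lost without PM replicate 1 (log2 fold 0.89, edgeR adjusted p = 0.0988) and with non-robust estimation (edgeR adjusted p = 0.0651). It was also lost without PBS replicate 1 (log2 fold 0.67) and without PBS replicate 3 (1.10), fits that hold 1 PBS library. In the GENCODE annotation 302 bases of S100a4 exon are shared with the gene model Gm42674 on the same strand, which has no entry in the tables.

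The genes whose pattern over the 5 libraries was most like that of S100a4 were Itgb2, Ms4a6c, Spsb1, Glipr1 and Clec4a3. Likeness was taken as the distance between log2(CPM + 0.5) values centred on each gene's mean, among 9017 genes of at least 10 CPM. The nearest was Itgb2, the beta chain of leukocyte integrins, at a distance of 0.113, with 28.7 and 40.2 CPM in PBS against 56.4, 65.8 and 58.2 CPM in PM. The distances of the others were 0.185 for Ms4a6c, a membrane protein of myeloid cells, 0.187 for Spsb1, an adaptor of ubiquitin ligases, 0.197 for Glipr1 and 0.224 for Clec4a3, a lectin receptor of myeloid cells. Their log2 folds lay between 0.80 and 0.96, and none passed the edgeR test over all genes (edgeR adjusted p from 0.0605 to 0.113). Of the other members the nearest to S100a4 was S100a11, ranked 326 of the 9017, and S100a6, its neighbour on the chromosome, ranked 4571.

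Marker genes of macrophages and monocytes moved in the same direction as S100a4. Their summed level was 855 and 1066 CPM in PBS against 2019, 2392 and 1903 CPM in PM, and PM libraries were above PBS libraries for 10 of the 13 measured markers, against 15.4% of all genes, with none at 0 counts in any library. Ccr2, the monocyte receptor for CCL2, rose within the list, from 25.7 and 26.0 CPM to 56.0, 74.3 and 58.6 CPM (log2 fold 1.28 ± 0.16 SE, edgeR adjusted p = 0.0142). Its call was lost without PBS replicate 1 or PBS replicate 3, fits that hold 1 PBS library, where the log2 fold was 1.27 and 1.29. Chil3, a chitinase-like protein (72.5 ± 76.8 CPM in PBS, 685 ± 292 CPM in PM), and Lyz2, lysozyme (476 ± 26.4 CPM in PBS, 698 ± 147 CPM in PM), made up most of the difference in the sum. Csf1r, the other of the 3 most abundant, overlapped between groups (118.7 ± 19.9 CPM in PBS, 107 ± 7.18 CPM in PM).

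Of the 10 fibroblast markers, 0 were called, 7 overlapped between the groups and 3, Inmt, Pdgfra and Tcf21, were lower in all PM libraries, against 16.1% of all genes. The folds were positive for 5 markers and negative for 5. The sum was 4460 and 4159 CPM in PBS against 3456, 3262 and 2899 CPM in PM, with no marker at 0 counts. Inmt, a methyltransferase and the most abundant of the list, was at 2750 and 2566 CPM in PBS against 1719, 1263 and 1710 CPM in PM (edgeR adjusted p = 0.0530) and set that difference, since without it the sum was 1710 and 1593 CPM in PBS against 1737, 1999 and 1189 CPM in PM, which overlapped. The collagen genes Col1a2 and Col3a1, next in abundance, had log2 folds of 0.04 and 0.33 and overlapped too.

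Dendritic and T cell markers summed to 132 and 162 CPM in PBS against 221, 247 and 158 CPM in PM, an overlap set by PM replicate 3. Of the most abundant, Itgax, an integrin chain of dendritic cells and macrophages, was at 15.9 and 29.0 CPM in PBS against 67.6, 82.9 and 38.4 CPM in PM, and Il7r at 26.0 and 29.7 CPM in PBS against 41.6, 42.1 and 30.7 CPM in PM. Clec9a, a receptor of cross-presenting dendritic cells, lay the other way, at 50.9 and 48.2 CPM in PBS against 34.0, 34.6 and 43.1 CPM in PM. By edgeR 0 of the 12 dendritic and T cell markers were called. An unadjusted p below 0.05 held for 5 with a positive fold and 1 with a negative fold, against 7.26% and 6.05% of all genes.

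Neutrophil markers, whose sum S100a8 and S100a9 dominated, lay at 286 and 141 CPM in PBS against 297, 237 and 978 CPM in PM. Without S100a8 and S100a9 the sum was 57.9 and 42.3 CPM in PBS against 87.0, 137 and 177 CPM in PM, with no overlap. Retnlg, the next in abundance, was at 19.9 and 20.7 CPM in PBS against 35.7, 84.5 and 58.1 CPM in PM. Retnlg, Mmp8 and Ltf, the last 2 named after their values were seen, were higher in every PM library, 3 of 8 tested markers against 15.4% of all genes. All 8 folds were positive, with a median of 1.19 on the log2 scale, and 0 were called by edgeR. The other 5, S100a8, S100a9 and, named after their values were seen, Csf3r, Cxcr2 and Mmp9, overlapped and were highest in PM replicate 3. Cxcr2 was at 8.33 and 5.55 CPM in PBS against 6.89, 4.29 and 29.2 CPM in PM. Retnlg and Ltf were highest in PM replicate 2. The part of cell numbers in the S100a4 result was not tested.

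**Figure D2:**
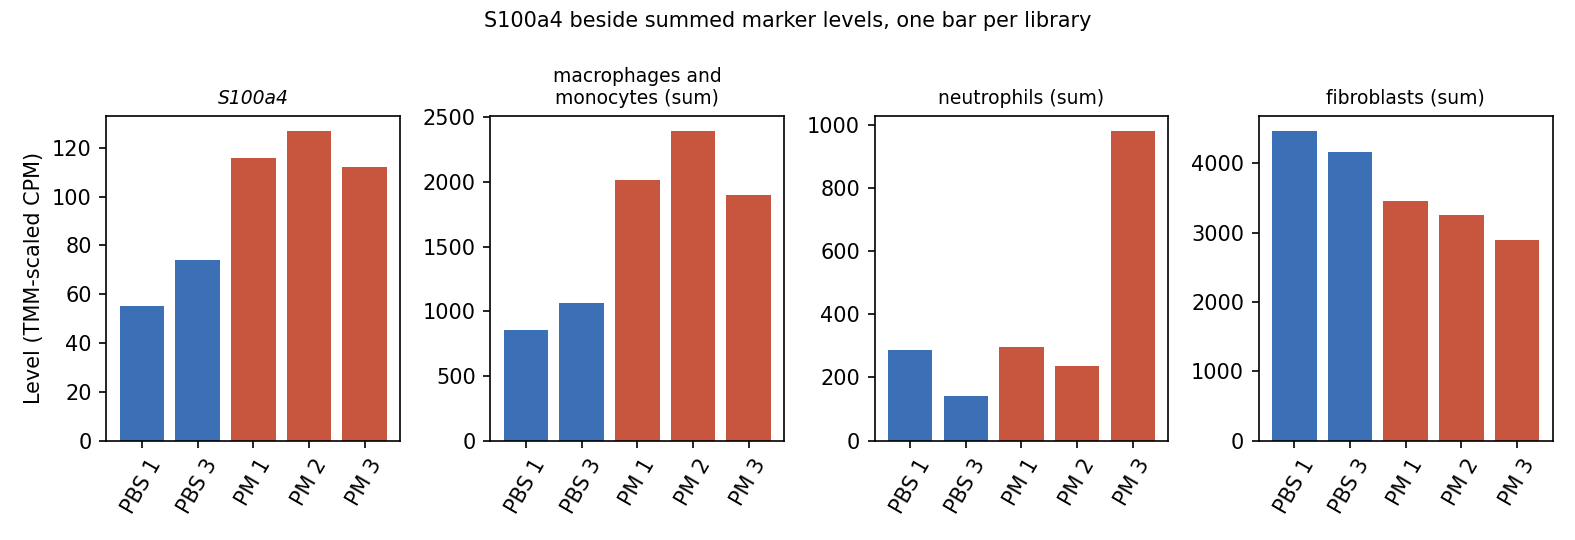
S100a4 and the summed levels of macrophage and monocyte, neutrophil and fibroblast markers in TMM-scaled CPM (y axes from 0), one bar per library, PBS blue and PM red. S100a4 and the macrophage sum are higher in all 3 PM libraries, the fibroblast sum is lower in all 3, a difference set by Inmt, and the neutrophil sum is highest in PM replicate 3, where S100a8 and S100a9 are highest.

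S100a6, or calcyclin, is the neighbour of S100a4 and was the most abundant member, with 42.1% to 51.7% of the members' summed CPM. It stood at 880 and 672 CPM in PBS against 714, 806 and 1023 CPM in PM. The PM values lay on either side of PBS replicate 1, and the log2 fold was 0.13 ± 0.17 SE (edgeR adjusted p = 0.806). Its sign turned without PBS replicate 3 (log2 fold -0.055) or PM replicate 3 (-0.030). The 3 genes nearest to S100a6 by the same distance, Nfkb2 (0.0917), Ppp1r1b (0.118) and N4bp2l1 (0.140), also overlapped between the groups. Nfkb2, a subunit of the NF-kB transcription factors, stood at 42.9 and 33.7 CPM in PBS against 34.8, 40.5 and 47.6 CPM in PM. The ratio of S100a4 to S100a6 in CPM was 0.0628 and 0.110 in PBS and 0.162, 0.157 and 0.110 in PM, so PM replicate 3 matched PBS replicate 3 in that ratio.

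S100a11, or calgizzarin, binds annexin A1 and had the next largest difference of the well-counted members. It was at 239 and 204 CPM in PBS against 290, 379 and 285 CPM in PM, with PM replicate 2 highest and no overlap between groups. The log2 fold was 0.52 ± 0.15 SE, a fold of 1.43, and it did not pass over all genes (edgeR adjusted p = 0.148). It passed with DESeq2 (adjusted p = 0.0482, where 1.83% of genes were called higher) and, by edgeR, without PM replicate 3 (log2 fold 0.59, adjusted p = 0.0487, where 261 of 13949 genes were called higher). A processed pseudogene of S100a11 stands in the annotation, and how the authors' counting divided reads between such copies is not given in the sources used here.

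S100a10, the annexin A2 partner that lies beside S100a11, was at 116 and 98.9 CPM in PBS against 139, 132 and 134 CPM in PM. The PM libraries spanned a narrow range above both PBS libraries, with a log2 fold of 0.33 ± 0.12 SE (edgeR adjusted p = 0.249), which was 0.22 without PBS replicate 3. The ratio of S100a11 to S100a10 was 2.06 and 2.06 in PBS and 2.08, 2.88 and 2.13 in PM, so PM replicate 2 differed from the other 4 libraries.

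S100a1 and S100a13, the divergent neighbours shown above, had unlike fitted folds, a difference that was not tested. S100a1, best known as a regulator of calcium cycling in heart muscle, was at 132 and 130 CPM in PBS against 145, 186 and 158 CPM in PM. All PM libraries were above PBS, with a log2 fold of 0.32 ± 0.13 SE (edgeR adjusted p = 0.315). S100a13, which takes part in the release of FGF1 without a signal peptide, was at 107 and 126 CPM in PBS against 115, 111 and 117 CPM in PM. Its PM values lay between the PBS values, with a log2 fold of -0.03 ± 0.12 SE (edgeR adjusted p = 0.950), which became 0.091 without PBS replicate 3. The ratio of S100a1 to S100a13 was 1.23 and 1.03 in PBS and 1.26, 1.68 and 1.35 in PM, higher in 3 of 3 PM libraries but in PM replicate 1 by little more than in PBS replicate 1. The RefSeq spans of these genes overlap by 98 bases on opposite strands (S100a13 from 90514233, S100a1 to 90514330) while GENCODE leaves 42 bases between them, and it is not given whether counting used strand, so reads there could be assigned to either.

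Heart muscle markers, which a lung piece can carry with its pulmonary veins, did not move with S100a1. Their sum was 603 and 224 CPM in PBS against 180, 480 and 518 CPM in PM, lowest in PM replicate 1 and highest in PBS replicate 1. Actc1, Myh6 and Tnnt2 were the most abundant of the 10, and none of the 10 separated the groups.

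S100a16, a broadly expressed member whose function is less known, was the steadiest. It was at 169 and 185 CPM in PBS against 167, 171 and 177 CPM in PM, a log2 fold of -0.04 ± 0.11 SE (edgeR adjusted p = 0.915) that became 0.023 without PBS replicate 3. The fitted fold was 0.971, with 1 SE either side reaching from 0.901 to 1.05.

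S100b, the glial and adipocyte member, was barely counted. It had 19 and 7 counts in PBS and 49, 16 and 27 counts in PM, or 2.20 and 0.863 CPM against 5.72, 2.29 and 3.40 CPM. The groups did not overlap in CPM, but PM replicate 2 and PBS replicate 1 differed by a few counts in the opposite order. The log2 fold was 1.31 ± 0.60 SE (edgeR adjusted p = 0.376), and it was 2.13 without PBS replicate 1, 0.79 without PBS replicate 3 and 0.89 without PM replicate 1.

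Cells known to make S100b have markers in the fat, cartilage and Schwann cell lists, of which 0 were called by edgeR. The fat list summed to 27.3 and 28.7 CPM in PBS against 112, 41.4 and 83.8 CPM in PM, in the same order of PM libraries as S100b, with Ucp1 at 0 counts in every library. Fabp4 was its most abundant gene, at 12.7 and 9.13 CPM in PBS against 67.7, 20.8 and 37.8 CPM in PM, followed by Cidec and Pparg, which overlapped between the groups. The order of the sum was not shared by all tested fat markers. Fabp4, Pparg and Plin1 kept it, while Cidec and Adipoq were highest in PM replicate 3 and Cidea in PM replicate 2. Plin1 and Cidea are named after their values were seen. At an unadjusted p below 0.05, 4 of the 6 tested fat markers were higher, against 7.26% of all genes. Of these Adipoq, named after its values were seen, overlapped, at 1.62 and 0.740 CPM in PBS against 10.4, 1.29 and 10.7 CPM in PM. The cartilage list summed to 15.6 and 14.6 CPM in PBS against 39.8, 69.4 and 29.4 CPM in PM, highest in PM replicate 2, where S100b was lowest of the PM libraries. Nearly all of that sum was Chad, Sox9 and a trace of Comp, while Col2a1, Col9a1 and Matn1 were at 0 counts throughout.

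Schwann and nerve cell markers summed to 403 and 482 CPM in PBS against 358, 287 and 441 CPM in PM. Pmp22 and Prx, which other lung cells also express, made up most of that sum, followed by Ncam1. Without Pmp22 and Prx the sum was 25.0 and 20.0 CPM in PBS against 20.9, 24.9 and 17.6 CPM in PM, which overlapped. Mbp, a myelin protein, and Sox10, a transcription factor of glia, both named after their values were seen, were higher in every PM library. Sox10 was not tested, and Mbp was 1 of the 6 tested markers of the list, against 15.4% of all genes. Mbp was at 2.78 and 1.60 CPM in PBS against 3.62, 5.44 and 2.90 CPM in PM, and Sox10 had 1 and 0 counts in PBS against 6, 6 and 2 counts in PM. Cdh19, a cadherin of Schwann cells, was at 0 counts throughout. The part of these tissues in the S100b values was not tested.

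**Figure D3:**
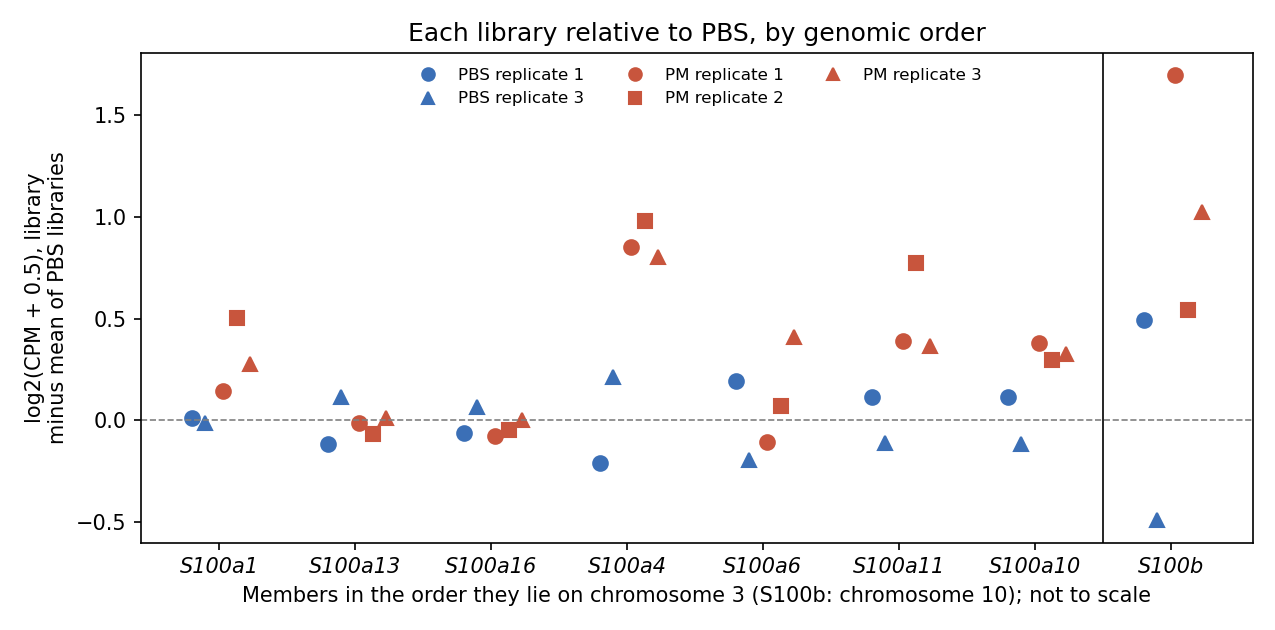
Difference of each library from the mean of the PBS libraries in log2(CPM + 0.5) (y axis) for the 7 members of chromosome 3 in genomic order and for S100b of chromosome 10, with PBS libraries blue, PM libraries red and the replicate number as the shape. S100a4, at 0.80 to 0.98 in PM, stands beside S100a6, at -0.11 to 0.41.

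Per length of exon the order of the members was S100a6, S100a11, S100a1, S100a4, S100a13, S100a16, S100a10 and S100b. In CPM per kilobase of exon, S100a6 ranged from 492 to 748 over the 5 libraries and S100a11 from 400 to 741, which overlapped. The exon length used for S100a6, 1367 bases, rests on GENCODE, which ends the gene at 90624181, whereas RefSeq ends it at 90614414. Its level per length, and its place beside S100a11, may therefore depend on the annotation. S100a1 ranged from 187 to 268, below S100a11 in every library. The ranges of S100a1 and S100a4 (94.5 to 217) overlapped, as did those of S100a4 and S100a13 (150 to 176). In PM lung S100a4 was at 202 ± 13.1 (SD, n = 3) and S100a13 at 160 ± 4.52, whereas in PBS lung S100a4 was at 111 ± 22.9 (SD, n = 2), below S100a13 at 163 ± 18.6, so their order differed between the groups. S100a16 (103 to 114) and S100a10 (81.6 to 115) overlapped with each other, and S100b, at 0.582 to 3.85, was far below.

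All members together summed to 1701 and 1491 CPM in PBS against 1691, 1913 and 2010 CPM in PM. PM replicate 1 lay below PBS replicate 1, so the groups overlapped. Without S100a6 the sum was 821 and 819 CPM in PBS against 978, 1107 and 988 CPM in PM, with no overlap. S100a4 made up 3.25% and 4.97% of the members' sum in PBS and 6.85%, 6.62% and 5.57% in PM.

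The S100 genes outside the list showed no call. Calprotectin, S100a8 and S100a9, was set by PM replicate 3: S100a8 was at 90.5 and 41.7 CPM in PBS against 88.8, 36.4 and 341 CPM in PM, and S100a9 at 137 and 56.9 CPM in PBS against 121, 64.0 and 459 CPM in PM. Their log2 folds of 1.23 ± 1.26 SE and 1.14 ± 1.18 SE became -0.0715 and -0.0662 without that library, whereas S100a4 was at 0.91 without it. S100g, the vitamin D-dependent calbindin, was at 154 and 151 CPM in PBS against 212, 152 and 148 CPM in PM, and S100a14 at 40.3 and 13.8 CPM in PBS against 22.9, 25.0 and 26.7 CPM in PM. None of these 4 passed edgeR's test, DESeq2 or limma-voom, or an unadjusted p below 0.05. S100a2, S100a3, S100a7a and S100z held at most 6 counts in any library and S100a5 held 0, and these 5 were not tested.

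**Figure D4:**
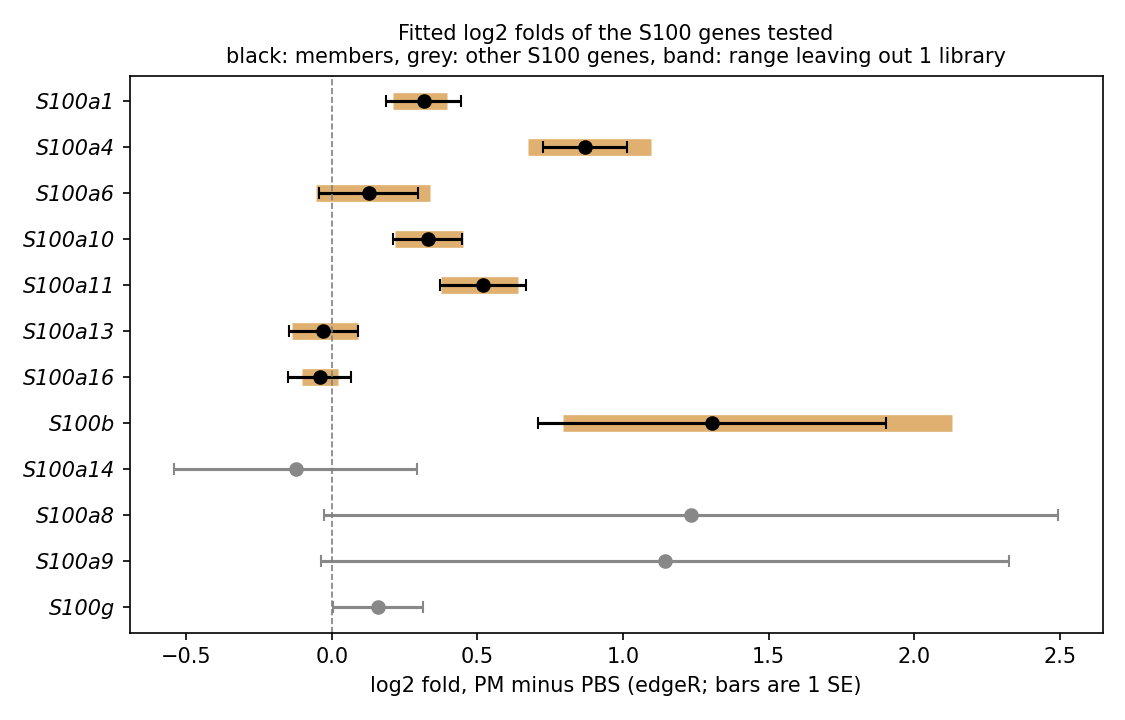
Fitted log2 fold, PM minus PBS, with 1 SE (x axis) for the 8 members (black) and the 4 other S100 genes tested (grey), with bands for the range of the members when each library is left out in turn. S100a4 stays between 0.67 and 1.10, whereas S100a6, S100a13 and S100a16 cross 0 and the calprotectin genes have errors larger than 1.

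Proteins that S100 members bind showed mixed directions. The list of such partners had 17 tested genes, of which 1 fell and 0 rose by edgeR, with a median log2 fold of 0.06 against 0.01 over all genes. At an unadjusted p below 0.05, 1 was higher and 3 were lower, against 7.26% and 6.05% of all genes. DESeq2 called 0 higher and 2 lower, against 1.83% and 0.783% of all genes, and limma-voom 0 higher and 1 lower, against 0.0854% and 0.0783%. The gene that fell was Myh10, a non-muscle myosin heavy chain, from 292 and 301 CPM to 176, 151 and 185 CPM (log2 fold -0.80 ± 0.12 SE, edgeR adjusted p = 0.0275). Its call was lost without PM replicate 1 (edgeR adjusted p = 0.0813) and with non-robust estimation (0.0543). It was also lost without PBS replicate 1 (log2 fold -0.82) and without PBS replicate 3 (-0.78), fits that hold 1 PBS library. Without PM replicate 3, 3 partners were called, all lower, where 166 of 13949 genes were called lower. Myh9, the isoform that S100a4 binds best, named here outside the rule, was at 499 and 539 CPM in PBS against 518, 514 and 439 CPM in PM. Pygm, the muscle glycogen phosphorylase, was at 45.9 and 45.3 CPM in PBS against 27.1, 26.8 and 27.6 CPM in PM (edgeR adjusted p = 0.0530). Cacybp, the calcyclin-binding protein named for S100a6, was at 30.0 and 35.0 CPM in PBS against 42.6, 52.0 and 44.0 CPM in PM (edgeR adjusted p = 0.183).

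Annexins, the main targets of S100a10 and S100a11, had a median log2 fold of 0.19 over 10 tested genes. By edgeR 0 were called, while an unadjusted p below 0.05 held for 1 higher and 1 lower gene, where 7.26% and 6.05% of all genes were. DESeq2 called 1 higher and 1 lower, against 1.83% and 0.783% of all genes, and limma-voom 0, against 0.0854% and 0.0783%. Anxa8 was at 3.47 and 2.34 CPM in PBS against 9.22, 11.4 and 11.8 CPM in PM (log2 fold 1.89 ± 0.33 SE, edgeR adjusted p = 0.0506), and Anxa5, which binds phosphatidylserine, at 209 and 228 CPM in PBS against 147, 145 and 160 CPM in PM (log2 fold -0.53 ± 0.11 SE, edgeR adjusted p = 0.0605). Both lay near the threshold: edgeR called Anxa8 with RLE size factors (adjusted p = 0.0496), with a filter of at least 1 CPM in 2 libraries (0.0481) and without PM replicate 2 (0.0445). It called both without PM replicate 3, with no filter on low counts, with all 6 tables and with the replicate block. All 6 tables count 1 PBS library as 2, and the block sets PM replicate 2 apart. Anxa9, next by p, had a log2 fold of 0.25. Anxa2, the partner of S100a10, and Anxa1, that of S100a11, both named outside the rule, had log2 folds of 0.24 ± 0.13 SE and 0.19 ± 0.13 SE. The ratio of S100a10 to Anxa2 overlapped between groups, at 0.262 and 0.273 in PBS and 0.287, 0.256 and 0.314 in PM. The ratio of S100a11 to Anxa1 was 3.48 and 3.38 in PBS and 4.11, 5.23 and 3.62 in PM, with no overlap.

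The list of receptors of released S100 proteins, which also holds scavenger receptors, had a median log2 fold of -0.0019 over 8 genes, with 0 called by edgeR. Without PM replicate 2 or PM replicate 3 edgeR called 1, which was higher. In those fits 78 of 13912 and 261 of 13949 genes were called higher. An unadjusted p below 0.05 held for 2 higher and 2 lower of the 8, where 7.26% and 6.05% of all genes did, and DESeq2 called 1 higher and 1 lower, where 1.83% and 0.783% were, and limma-voom 0. Ager, which encodes RAGE, was at 3216 and 3263 CPM in PBS against 2404, 2365 and 2566 CPM in PM. All PM libraries were lower, with a log2 fold of -0.41 ± 0.11 SE that did not pass edgeR (adjusted p = 0.147) and passed DESeq2 (adjusted p = 0.0120). Cd68, a macrophage lysosomal glycoprotein, was at 15.2 and 24.4 CPM in PBS against 45.3, 62.4 and 39.0 CPM in PM (edgeR adjusted p = 0.0681), and Cd33, a myeloid lectin, at 1.16 and 1.60 CPM in PBS against 3.38, 5.30 and 6.55 CPM in PM (0.128).

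Other EF-hand calcium sensors were called by edgeR in 0 of 18 cases, with a median log2 fold of 0.07. Without PM replicate 3, 2 were called, both higher, where 261 of 13949 genes were called higher. An unadjusted p below 0.05 held for 3 higher and 0 lower of the 18, against 7.26% and 6.05% of all genes. DESeq2 called 1 higher and 0 lower, against 1.83% and 0.783% of all genes, and limma-voom 0, against 0.0854% and 0.0783%. Efhd2, an actin-binding protein of leukocytes, was at 88.8 and 91.2 CPM in PBS against 132, 143 and 124 CPM in PM (edgeR adjusted p = 0.0612). Lcp1, the leukocyte plastin, was at 160 and 160 CPM in PBS against 210, 246 and 184 CPM in PM (0.195), and Cib1 at 36.5 and 36.3 CPM in PBS against 44.8, 57.7 and 45.8 CPM in PM (0.240).

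The remaining markers were those of epithelium, vessels, muscle and mesothelium, cells that can express S100a6, S100a10, S100a11 and S100a16. By edgeR 0 of them were called. Alveolar epithelial markers summed to 25770 and 21930 CPM in PBS against 25920, 22970 and 25090 CPM in PM, a sum set by the surfactant genes. Of these Sftpc and Sftpb overlapped between the groups (log2 folds 0.08 and -0.02), and Sftpa1 was higher in every PM library, at 4463 and 3547 CPM in PBS against 5026, 5481 and 5315 CPM in PM. Markers of type 1 cells lay the other way: Ager and, named after their values were seen, Pdpn, Hopx and Rtkn2 were lower in every PM library, with log2 folds from -0.41 to -0.22, while Aqp5 overlapped. Of the 10 alveolar markers 1 lay wholly above and 4 wholly below, against 15.4% and 16.1% of all genes.

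Airway epithelial markers summed to 21740 and 22490 CPM in PBS against 17270, 23160 and 33560 CPM in PM, nearly all of it Scgb1a1, Cyp2f2 and Scgb3a2, which overlapped between the groups. PM replicate 3 was the highest library for the airway sum and also for S100a6. Muc5b, a gel-forming mucin, and Agr2, which folds mucins, both named after their values were seen, were higher in every PM library. They were 2 of the 9 tested airway markers, against 15.4% of all genes. Muc5b was at 4.40 and 2.22 CPM in PBS against 39.3, 101.5 and 18.5 CPM in PM (log2 fold 3.98, edgeR adjusted p = 0.319), and Agr2 averaged 0.790 ± 0.627 CPM in PBS (SD, n = 2) and 8.35 ± 7.10 CPM in PM (SD, n = 3), with a log2 fold of 3.38 (edgeR adjusted p = 0.240).

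Endothelial markers were lower in all PM libraries in sum, at 2241 and 2489 CPM in PBS against 2096, 1772 and 2020 CPM in PM. Kdr, Plvap and Pecam1, the most abundant, each lay lower in every PM library, Pecam1 at 478 and 498 CPM in PBS against 392, 371 and 387 CPM in PM. Of the 8 endothelial markers 4 were lower in every PM library, against 16.1% of all genes, and 4 overlapped. Folds were negative for 5 and positive for 3, which were Vwf, Car4 and Cldn5, named after their values were seen. Smooth muscle and pericyte markers overlapped between groups in sum, at 486 and 409 CPM in PBS against 519, 574 and 407 CPM in PM, as did Tagln and Myh11. Acta2, smooth muscle actin, was at 170 and 135 CPM in PBS against 242, 272 and 185 CPM in PM. Des and Pdgfrb, named after their values were seen, were lower in every PM library, with log2 folds of -0.74 and -0.50. Of the 8 markers 1 lay wholly above and 2 wholly below, against 15.4% and 16.1% of all genes. Folds were positive for 4 and negative for 4. Mesothelial markers overlapped too in sum, at 468 and 388 CPM in PBS against 352, 378 and 393 CPM in PM, as did Krt19. Gpm6a, Lrrn4 and, named after its values were seen, Upk3b were lower in every PM library, 3 of 6 markers against 16.1% of all genes. No marker of these 5 lists was at 0 counts throughout, and their part in the levels of the members was not tested.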

How the data were processed

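The deposited values were the authors' raw counts of reads per gene symbol. Per the submitters' processing notes, TopHat, Cufflinks and the build mm10 are named; for the counting program, annotation and strand use nothing is given in the sources used here. Per the labels' protocols, libraries came from a polyadenylated RNA kit. A blank entry was left out, and of entries sharing a symbol the highest was kept, which set aside 44. Genes were filtered with filterByExpr, scaled by TMM and tested with edgeR 4.0.16 (quasi-likelihood, robust, two-sided, no covariates) in R 4.3.3, with calls at p below 0.05 after Benjamini-Hochberg adjustment over 14057 genes. The standard error is the log2 fold divided by the root of F. Exon lengths came from GENCODE M21, as all bases covered by any annotated exon of the gene, and the start of a promoter window from RefSeq. On counts simulated for this comparison (14057 genes), 79 of 100 changes of 2-fold and 97 of 100 of 4-fold were recovered, with 17 false calls among 193. The changed genes were drawn from well-counted genes only, so these shares do not cover genes counted as low as S100b. The simulated spread was that fitted to these libraries. DESeq2 1.42.0, limma-voom (limma 3.58.1) and other settings were alternatives.

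The members and all lists were chosen with earlier results of these data known. By rule, all S100 genes are named, with called genes and the 3 smallest p-values of each partner, receptor and sensor list, called genes and the 3 most abundant of each marker list, and the 5 genes nearest to S100a4 and S100a6, of which 2 for S100a6 are not reported here. Precision is limited by 2 PBS libraries.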

Additional observations from a re-analysis of the deposited data

How the results depend on the processing

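The number of genes called, 32, was 33 with RLE size factors, 31 with upper quartile scaling, 275 with no filter on low counts, 81 with a filter of at least 1 CPM in 2 libraries, 635 with all 6 tables as deposited, 370 with DESeq2, 23 each with limma-voom and non-robust estimation and 206 at an adjusted p below 0.10, and it ran from 1 to 427 when each library was left out in turn. The fit of all 6 tables counted 1 PBS library as 2, since PBS replicates 1 and 2 were identical, so its 635 calls rest on a repeated library. The cause of the other differences was not tested. With the replicate number as a block 353 genes were called, and S100a4 stayed the 1 member called (log2 fold 0.83, edgeR adjusted p = 0.00422). Replicate 2 was counted only in PM, so PM replicate 2 formed a block of its own and added nothing to these folds. With PM replicate 2 left out, the log2 fold of S100a4 was 0.82. The numbers are not shown to pair samples, since deviations correlated at -0.03 for replicate 1 and 0.07 for replicate 3 across genes. Deviations of 2 PBS libraries mirror each other, and PBS replicate 1 with PM replicate 3 gave -0.07. Of the members, 2 were called by DESeq2 and 0 with non-robust estimation, and 0 to 2 when libraries were left out. The members' median log2 fold ran from 0.26 to 0.39 without single libraries. S100a4 lost its call with non-robust estimation (log2 fold 0.87) and without PBS replicate 1, PBS replicate 3 or PM replicate 1, over a leave-one-out range of 0.67 to 1.10. With either PBS replicate left out, 1 PBS library remained. Folds that changed sign, all uncalled, ran on leaving out single libraries from -0.70 to 0.85 for S100a14, -0.055 to 0.34 for S100a6, -0.14 to 0.091 for S100a13, -0.10 to 0.023 for S100a16, -0.0715 to 1.91 for S100a8, -0.066 to 1.92 for S100a9 and -0.025 to 0.25 for S100g. S100a14 was also at 0.015 with the replicate block and 0.053 with limma-voom, and S100a13 at 0.015 with all 6 tables. S100a1, S100a4, S100a10, S100a11 and S100b kept a positive fold in 15 of 15 alternatives. For each of them every PM library lay above every PBS library, so leaving out a library could hardly turn the sign.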
